A study of Mus musculus with 12 samples.

Results

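The genes described here are Gdf15 and 9 genes of the integrated stress response, Fgf21, Atf4, Atf5, Atf3, Ddit3, Trib3, Chac1, Nupr1 and Sesn2. They were chosen with earlier results of these data known. Their rows were taken from the deposited table by symbol, and all 10 were found among its 24062 genes. RNA was sequenced from flash-frozen mouse heart samples in 4 groups of 3 mice, with 1 library per mouse. WT mice were compared at 2 months of age with KI/KI mice, which carry the c.T38>G change on both copies of Lemd2 in every cell, a hypomorphic mutation made with CRISPR-Cas9. At postnatal day 1 (P1), Lemd2-floxed mice, with loxP sites around exon 1 on both alleles and no Cre, were compared with cKO mice, which carry the same alleles and the Myh6-Cre transgene. Cre is driven by the α-myosin heavy chain promoter, so that other cells of the cKO heart keep Lemd2. Controls with Cre but without floxed alleles were not analysed here, so that Cre and the deletion cannot be told apart. The comparison asks whether the rise of Gdf15 comes with genes of the ATF4 and CHOP pathway.

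The integrated stress response begins when one of the kinases Eif2ak1 to Eif2ak4 phosphorylates the initiation factor eIF2. Most translation then slows, while the mRNA of the transcription factor Atf4 is translated more. ATF4 and its partners Atf5, Atf3 and CHOP, the product of Ddit3, bind composite C/EBP-ATF response elements and turn on genes of amino acid synthesis and transport, tRNA charging and redox balance. Much of this control acts on translation, which mRNA counts do not measure. Gdf15 encodes a secreted member of the TGF-β superfamily that acts through the receptor GFRAL in the hindbrain. It is known as a cytokine of stressed tissue and as a target of CHOP, ATF4 and p53, and it is followed as a blood marker in heart disease.

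Promoter sequences are shown for Gdf15 and for the 3 other genes with the largest rise in cKO hearts, as a description. They come from RefSeq (GRCm38.p6), span 250 bases before to 50 after the annotated start and are written 5′ to 3′ on the strand of the gene. Capitals mark the C/EBP-ATF element, searched on both strands as TGATGNAA. The windows are chr8:70632407-70632706 (minus strand) for Gdf15, chr1:191183284-191183583 (minus) for Atf3, chr2:152344011-152344310 (minus) for Trib3 and chr2:119350992-119351291 (plus) for Chac1.
Gdf15: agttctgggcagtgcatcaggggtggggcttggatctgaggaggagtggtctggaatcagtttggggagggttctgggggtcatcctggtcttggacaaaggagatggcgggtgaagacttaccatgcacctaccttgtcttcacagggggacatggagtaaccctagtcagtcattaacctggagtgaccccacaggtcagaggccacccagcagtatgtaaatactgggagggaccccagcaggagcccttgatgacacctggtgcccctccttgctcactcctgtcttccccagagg
Atf3: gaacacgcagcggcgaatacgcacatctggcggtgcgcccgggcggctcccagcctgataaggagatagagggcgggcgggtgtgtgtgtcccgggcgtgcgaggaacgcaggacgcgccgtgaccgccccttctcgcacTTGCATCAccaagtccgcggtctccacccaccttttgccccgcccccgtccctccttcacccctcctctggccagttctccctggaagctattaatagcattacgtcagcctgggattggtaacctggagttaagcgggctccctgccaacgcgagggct
Trib3: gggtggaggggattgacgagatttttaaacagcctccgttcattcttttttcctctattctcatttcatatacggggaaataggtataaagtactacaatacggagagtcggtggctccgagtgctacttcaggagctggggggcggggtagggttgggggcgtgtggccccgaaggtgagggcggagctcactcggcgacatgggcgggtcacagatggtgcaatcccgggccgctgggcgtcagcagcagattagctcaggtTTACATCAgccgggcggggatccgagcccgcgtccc
Chac1: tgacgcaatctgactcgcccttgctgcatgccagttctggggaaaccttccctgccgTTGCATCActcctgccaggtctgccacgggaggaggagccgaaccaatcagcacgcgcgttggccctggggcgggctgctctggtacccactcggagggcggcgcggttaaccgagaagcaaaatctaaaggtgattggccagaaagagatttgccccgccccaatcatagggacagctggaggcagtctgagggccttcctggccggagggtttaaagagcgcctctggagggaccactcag

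The element was found in the promoters of 5 of the 10 genes, against 4.51% of 27025 mouse genes with a promoter. It lay 110 bases upstream of the start in Atf3, 110 in Nupr1, 139 in Fgf21 and 193 in Chac1, and 14 bases downstream of the start in Trib3. In GENCODE M21 Atf3 and Nupr1 reach further upstream than these RefSeq windows, to chr1:191218039 and chr7:126630861. Those upstream ends were not searched. All 5 matches read TGATGNAA on the strand opposite to the gene. Neither of the 2 annotated Gdf15 promoters held it, nor did those of Atf4, Atf5, Ddit3 and Sesn2. An AP-1 element (TGANTCA) was found in Ddit3 alone, 242 bases upstream, and is present in 8.97% of genes. The cAMP response element TGACGTCA and the ER stress element (ERSE) were found in none of the 10, and are present in 2.03% and 0.14% of genes. The p53 half-site was found in Atf5 alone and is present in 9.55% of genes. Among listed genes with a promoter, the C/EBP-ATF element was found in 5 of 9 for tRNA synthetases and the tRNA exporter Xpot. It was found in 6 of 18 amino acid genes and 2 of 11 other ATF4 and CHOP targets. It was also in 1 of 21 genes of the ATF6 and XBP1 branch and 1 of 20 p53 targets. A match describes these letters in these windows and nothing about binding. Sites outside the windows or with other letters were not searched, so the absence of a match says nothing about binding either.

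**Figure D1:**
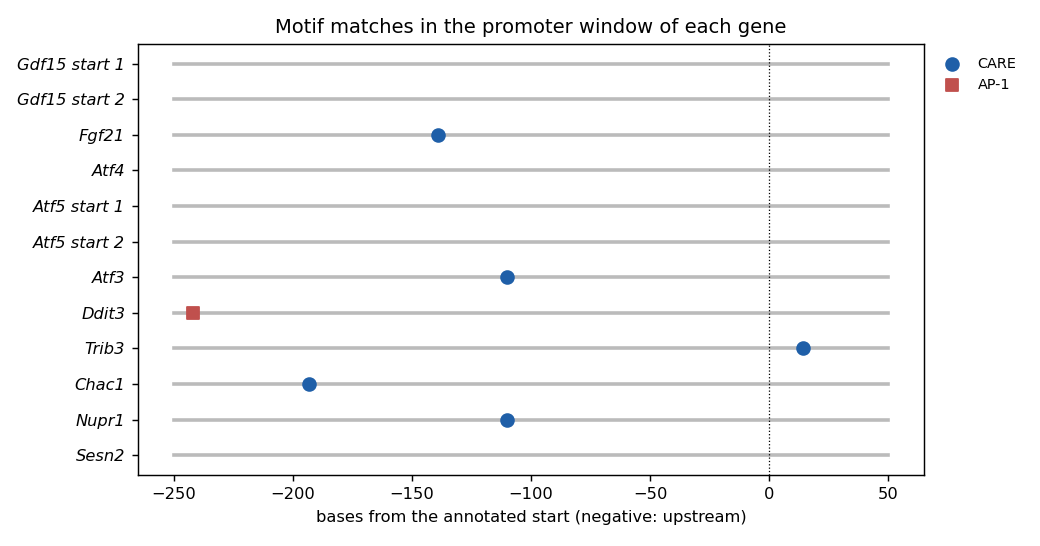
Position of the matches in the promoter window of each of the 10 genes (2 windows for Gdf15 and for Atf5), in bases from the annotated start. The p53 half-site matches of Atf5 are not drawn. Circles mark the C/EBP-ATF element (CARE), found in 5 of the 10 genes, and the square the AP-1 element of Ddit3.

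Libraries held 37063669 to 44789753 counted reads. Levels are given as CPM, the read count scaled by library size with TMM factors over the 12 libraries. The floor was set at 3 counts, which is at most 0.0962 CPM. Lemd2 itself was at 31.9 to 34.7 CPM in WT and 24.8 to 25.6 CPM in KI/KI hearts, and at 24.4 to 25.3 CPM in floxed and 6.64 to 13.1 CPM in cKO hearts. The library labelled cKO 4 stood apart by sex, with 617 CPM of Xist and 0.0402 CPM of Ddx3y, while the other 11 libraries had at most 2.03 CPM of Xist and at least 96.4 CPM of Ddx3y. Cardiomyocyte markers (6 genes, none at 0) summed to 68944 to 77802 CPM in WT, 51930 to 68507 in KI/KI, 40254 to 46943 in floxed and 36528 to 39486 in cKO hearts. Macrophage markers (7 genes, none at 0) summed to 252 to 393 CPM in WT, 412 to 491 in KI/KI, 107 to 127 in floxed and 143 to 250 in cKO hearts. Fibroblast markers (6 genes, none at 0) summed to 1489 to 1708 CPM in WT, 1714 to 2713 in KI/KI, 2672 to 3023 in floxed and 3246 to 3833 in cKO hearts. Endothelial markers (5 genes, none at 0) summed to 959 to 1034 CPM in floxed and 1121 to 1418 in cKO hearts and overlapped in adults. WT 3, the WT heart with the most Gdf15, had 101 CPM of lung epithelium markers (2 of 7 at 0). It had 84.4 CPM of adipocyte markers (6 genes, none at 0). WT 1 and 2 had at most 0.549 and 10.5 CPM of these. Lung epithelium markers also summed to 35.0 CPM in KI/KI 4, 30.8 in floxed 1, 49.1 in floxed 2 and 22.6 in cKO 4. The remaining KI/KI, floxed and cKO hearts had at most 5.22 CPM. Adipocyte markers summed to 7.72 to 38.4 CPM in KI/KI hearts and to at most 1.38 CPM at P1. In RNA of mixed heart tissue a change in the share of a cell type and a change in RNA per cell cannot be told apart. The part of these shifts in the results was not tested.

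Gdf15 rose more than any other of the 10 genes in both models. Its gene lies at chr8:70629393-70632456 on the minus strand. It was at 0.225, 0.214 and 0.846 CPM in WT hearts and at 3.06, 13.5 and 8.84 CPM in KI/KI hearts. The lowest KI/KI heart was above the highest WT heart, and KI/KI 5 was 4.42 times KI/KI 4. In floxed hearts Gdf15 was at 0.453, 0.415 and 0.531 CPM and in cKO hearts at 14.0, 8.40 and 7.47 CPM. These groups did not overlap either, and the floxed hearts lay close together. In the cKO hearts Gdf15 was 21.4-fold higher (log2 fold change 4.42, SE 0.37, adjusted p = 0.00481 by edgeR's quasi-likelihood test). For KI/KI hearts the estimate was 19.2-fold (log2 fold change 4.26, SE 0.75), and the adjusted p was 0.181 by edgeR and 2.14e-08 by DESeq2. With each of the 6 libraries left out the log2 fold change ran from 3.74 (without KI/KI 5) to 5.28 (without WT 3) and the edgeR adjusted p from 0.0346 to 0.518, passing only without KI/KI 4. It was 0.242 by limma-voom and 0.0317 in a fit of all 12 libraries. The difference between the models was 0.15 on the log2 scale (SE 1.08, adjusted p = 0.957).

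Fgf21, the other secreted signal among the 10 genes and a hormone of the fasting and mitochondrial stress responses, was not detectable. Its counts were 0, 0 and 2 in WT, 1, 1 and 0 in KI/KI, 1, 3 and 0 in floxed and 3, 0 and 1 in cKO hearts. No library was above the floor of 3 counts, and Fgf21 did not pass the filter on low counts. Gfral, the receptor of GDF15, had 0 counts in all 12 hearts.

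**Figure D2:**
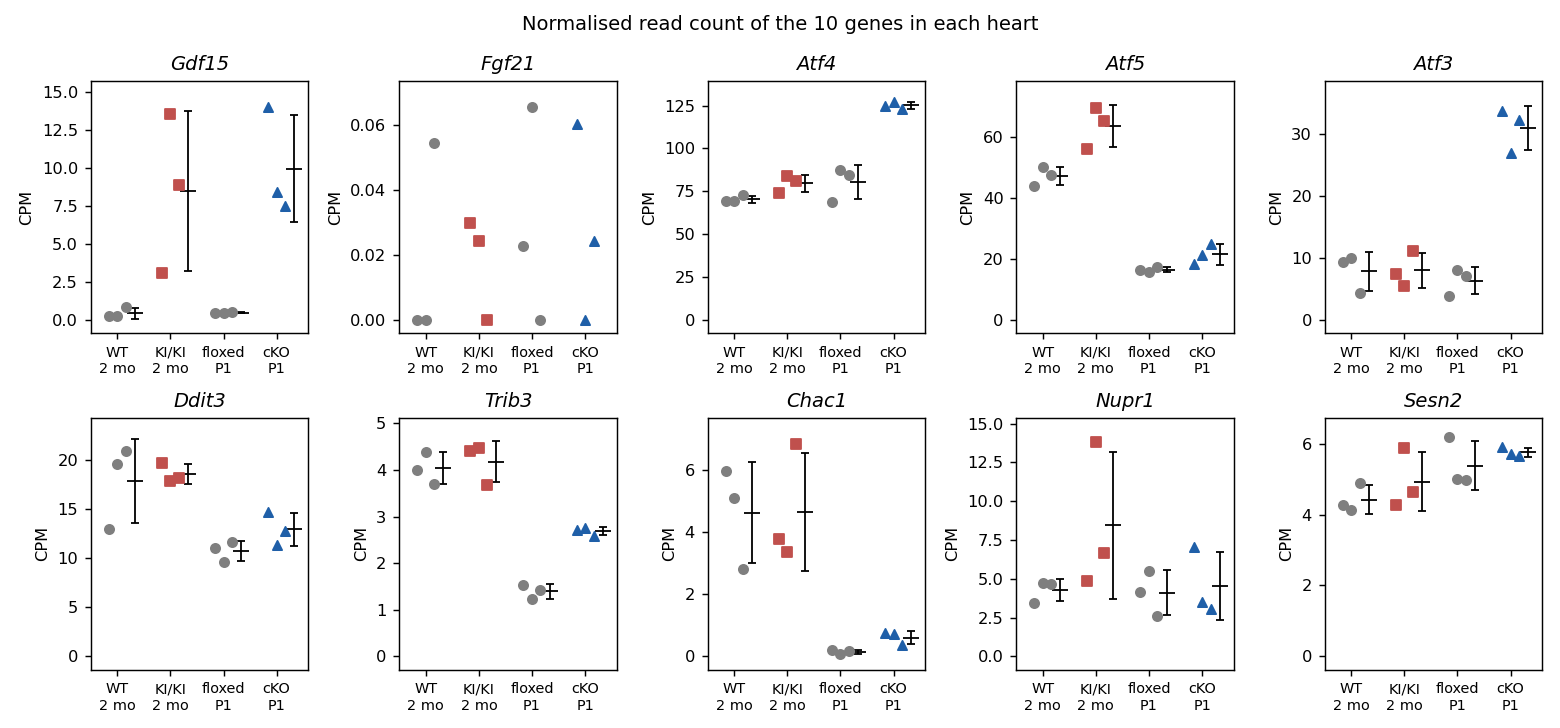
Normalised read count (CPM) of each gene in each of the 12 hearts, on a linear axis, with the group mean and SD as black bars (not drawn for Fgf21). Gdf15 stood above its controls in all 6 mutant hearts, while Atf3 did so in the 3 cKO hearts and 1 of 3 KI/KI hearts.

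Of the 4 transcription factors, Atf3 and Atf4 rose in cKO hearts. Atf3, a stress-induced factor of the ATF/CREB family, was at 3.90, 7.97 and 7.07 CPM in floxed and 33.7, 27.0 and 32.3 CPM in cKO hearts. Every cKO heart was above every floxed heart. The change was 4.90-fold (log2 fold change 2.29, SE 0.25, edgeR adjusted p = 0.00582). In adult hearts Atf3 was at 9.24, 9.88 and 4.23 CPM in WT and 7.35, 5.50 and 11.1 CPM in KI/KI. These groups overlapped, with a log2 fold change of 0.05 (SE 0.37, edgeR adjusted p = 0.958).

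Atf4, the central factor of the response, was the most abundant of the 10 genes per kilobase of exon in all 4 groups. At P1 its level was 69.0, 87.4 and 84.5 CPM without Cre and 125, 127 and 123 CPM in cKO hearts. The groups did not overlap, and the change was 1.56-fold (log2 fold change 0.64, SE 0.10, edgeR adjusted p = 0.0108), under the 2-fold threshold. In WT hearts Atf4 was at 69.0, 69.4 and 72.5 CPM and in KI/KI hearts at 74.0, 83.6 and 81.0 CPM. All 3 KI/KI hearts were above the WT hearts, but the log2 fold change of 0.18 (SE 0.07) did not pass (edgeR adjusted p = 0.275).

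Atf5, a relative of Atf4 linked to mitochondrial stress, was at 44.1, 50.1 and 47.4 CPM in WT and 56.0, 69.6 and 65.3 CPM in KI/KI hearts. It was at 16.3, 15.6 and 17.2 CPM in floxed and 18.2, 21.2 and 25.0 CPM in cKO hearts. Mutant and control hearts did not overlap in either model, by small margins. The log2 fold changes were 0.44 (SE 0.10) in KI/KI and 0.39 (SE 0.12) in cKO hearts. The adjusted p-values were 0.200 and 0.0750 by edgeR and 0.0121 and 0.0452 by DESeq2. Atf5 overlaps Nup62 and Il4i1 on the other strand, and the strand setting of the counting is not given in the sources used here.

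Ddit3 passed the test in neither model. It was at 13.0, 19.6 and 20.9 CPM in WT and 19.8, 17.9 and 18.2 CPM in KI/KI hearts. At P1 it was at 11.1, 9.67 and 11.7 CPM in floxed and 14.7, 11.3 and 12.8 CPM in cKO hearts. Groups overlapped in both models. The log2 fold changes were 0.06 (SE 0.18, edgeR adjusted p = 0.883) and 0.26 (SE 0.14, edgeR adjusted p = 0.234).

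Among the downstream genes, Chac1 and Trib3 were higher in cKO hearts, from low levels. Trib3, a pseudokinase that ATF4 and CHOP induce and that restrains them, was at 1.54, 1.22 and 1.42 CPM in floxed and 2.71, 2.75 and 2.59 CPM in cKO hearts. The groups were clearly apart, with a 1.93-fold change (log2 fold change 0.95, SE 0.18, edgeR adjusted p = 0.0188). Trib3 was at 4.01, 4.39 and 3.71 CPM in WT and 4.40, 4.46 and 3.68 CPM in KI/KI hearts. The adult groups overlapped (log2 fold change 0.06, SE 0.14, edgeR adjusted p = 0.846).

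Chac1, which degrades glutathione, had 9, 3 and 8 counts in floxed hearts (0.204, 0.0655 and 0.170 CPM) and 37, 34 and 15 counts in cKO hearts (0.744, 0.709 and 0.363 CPM). The lowest cKO heart was above the highest floxed heart. The change was 4.17-fold (log2 fold change 2.06, SE 0.50, edgeR adjusted p = 0.0348). The call rested on few counts: it was lost without floxed 1, 2 or 3 or cKO 4 or 5 (edgeR adjusted p 0.0715 to 0.118), and kept without cKO 6 (0.0136). In WT hearts Chac1 was at 5.97, 5.09 and 2.81 CPM and in KI/KI hearts at 3.78, 3.35 and 6.85 CPM, with overlapping groups (log2 fold change 0.03, SE 0.36).

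Nupr1, a small stress-induced chromatin protein, was at 3.46, 4.76 and 4.64 CPM in WT and 4.85, 13.8 and 6.65 CPM in KI/KI hearts. The groups did not overlap, but the log2 fold change of 0.99 had an SE of 0.40 and an edgeR adjusted p of 0.302. In floxed hearts it was at 4.17, 5.50 and 2.61 CPM and in cKO hearts at 7.02, 3.48 and 3.05 CPM. These overlapped (log2 fold change 0.16, SE 0.40). Sesn2, an inhibitor of mTORC1 that p53 and ATF4 both induce, was at 4.12 to 4.88 CPM in WT, 4.28 to 5.89 in KI/KI, 4.97 to 6.19 in floxed and 5.66 to 5.91 in cKO hearts. Its log2 fold changes were 0.17 (SE 0.16) and 0.10 (SE 0.15), with overlapping groups in both models. Sesn2 overlaps a gene on its own strand, Gm12981.

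Calling a gene took an edgeR adjusted p below 0.05 together with a change of more than 2-fold. Since the 10 genes were chosen with earlier results of these data known, their counts are no test of enrichment. The shares of all genes are set beside them as a description. Of the 10 genes 9 were tested, and 3 of them were called in cKO hearts, Gdf15, Atf3 and Chac1, all higher. Of all 15317 tested genes 2.85% were called higher and 1.78% lower. Without the fold threshold it was 5 of 9, with Atf4 and Trib3, all higher, against 9.32% of genes higher and 7.57% lower. In 6 of 9 the cKO hearts lay above the floxed hearts, against 20.1%. Atf4 missed the threshold without floxed 1 (edgeR adjusted p = 0.0512) or cKO 5 (0.0525), and Trib3 without floxed 1 (0.0805), floxed 2 (0.0697) or cKO 5 (0.0802). In the adult comparison 0 of the 9 were called by edgeR, as were 0% of the 14592 tested genes in either direction. At an unadjusted p under 0.05, 4 of the 9 were higher, against 8.92% of genes higher and 7.28% lower. DESeq2 called 1 of the 9, Gdf15, against 0.756% of genes called higher and 0.323% lower. In 4 of the 9, Gdf15, Atf4, Atf5 and Nupr1, all KI/KI hearts lay above all WT hearts, against 11.2% of genes.

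**Figure D3:**
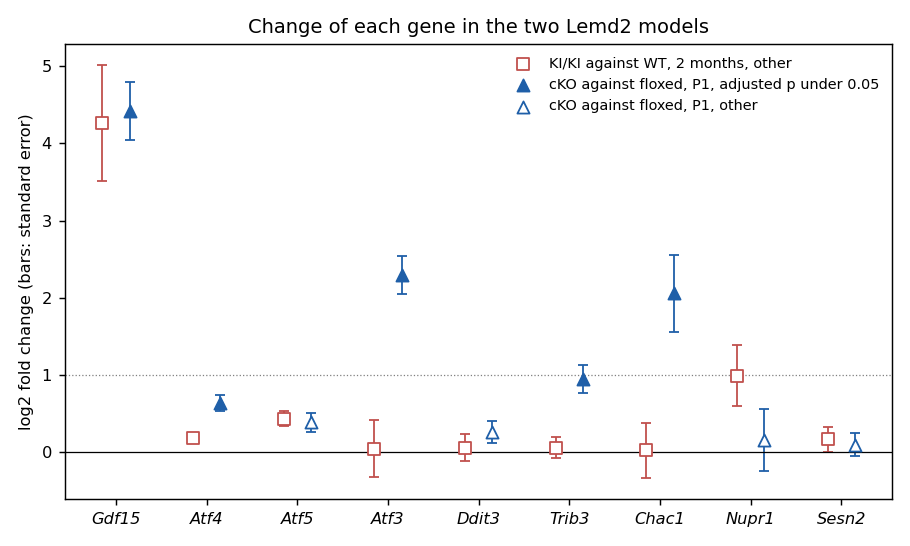
Log2 fold change with its standard error for the 9 tested genes in KI/KI against WT hearts (squares) and cKO against floxed hearts (triangles). Filled symbols have an edgeR adjusted p under 0.05, and the dotted line marks a 2-fold change. Gdf15 changed by a similar amount in both, 4.26 and 4.42, while the values of Atf3 were 0.05 and 2.29.

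Heart by heart, Gdf15, Atf4, Atf5, Nupr1 and Sesn2 shared an order among the KI/KI hearts, from KI/KI 5 through 6 to 4. Atf3, Chac1, Ddit3 and Trib3 did not share that order. KI/KI 5 had the highest Gdf15, Atf4, Atf5, Trib3, Nupr1 and Sesn2 but the lowest Atf3, Chac1 and Ddit3 of the 3. The sum of cardiomyocyte markers was lowest in KI/KI 5 and highest in KI/KI 4 (51930 and 68507 CPM). That of fibroblast markers was highest in KI/KI 5 and lowest in KI/KI 4 (2713 and 1714 CPM). The part of these sums in the order of the genes was not tested. In log2 CPM over the mean of WT, Gdf15 was 2.96, 5.08 and 4.47 higher in KI/KI 4, 5 and 6. On the same scale over the mean of floxed, Atf3 was 2.15 to 2.47 and Trib3 0.87 to 0.96 higher in the cKO hearts, while Nupr1 ran from -0.36 to 0.83. The ratio of the highest to the lowest mutant heart was taken in each model. It was larger among KI/KI than cKO hearts for Gdf15 (4.42 and 1.87), Atf3 (2.02 and 1.25) and Nupr1 (2.85 and 2.30). So it was for Sesn2 (1.37 and 1.05), Trib3 (1.21 and 1.06) and Atf4 (1.13 and 1.03). The ratio was smaller for Atf5 (1.24 and 1.37) and Ddit3 (1.10 and 1.29), and about the same for Chac1 (2.04 and 2.05). cKO 4 had the highest Gdf15, Atf3, Chac1, Ddit3, Nupr1 and Sesn2 of the 3 cKO hearts.

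**Figure D4:**
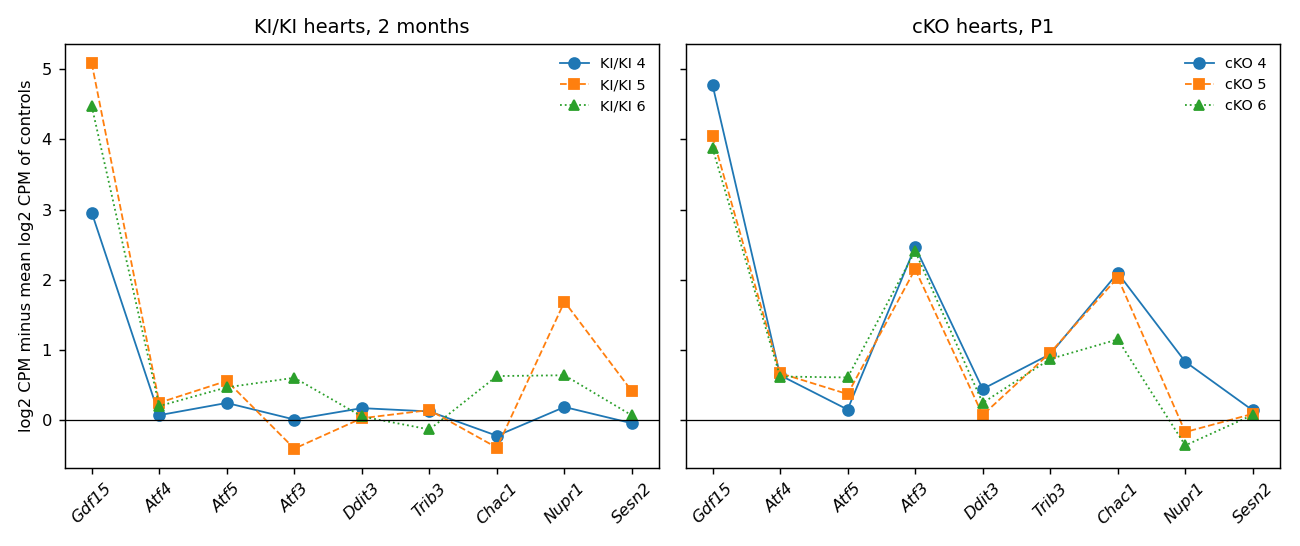
Each mutant heart's log2 CPM minus the mean log2 CPM of its 3 controls for the 9 tested genes. In the 3 cKO hearts Gdf15 was highest and Atf3 next, while KI/KI hearts rose in Gdf15 and scattered about 0 in Atf3 and Chac1.

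The lists that follow, also chosen with earlier results known, are set, as a description, beside all tested genes. In cKO hearts 2.85% of these were called higher and 1.78% lower, 9.32% were higher and 7.57% lower without the fold threshold, and 18.5% were higher and 16.2% lower at an unadjusted p. In KI/KI hearts 0% were called, and 8.92% were higher and 7.28% lower at an unadjusted p. The first list held 17 genes, those of the eIF2 kinases, eIF2B and the eIF2 phosphatase with Eif2s1, Eif2s2, Gcn1, Impact, Oma1 and Dele1. Of the 17, 1 was called in cKO hearts, Ppp1r15a, the stress-induced subunit (GADD34) that reverses eIF2 phosphorylation. Ppp1r15a was at 19.8 ± 4.38 CPM (SD, n = 3) in floxed and 42.5 ± 3.68 in cKO hearts (log2 fold change 1.10, SE 0.17, edgeR adjusted p = 0.0101). Without the fold threshold 3 of the 17 passed, all higher (9.32% of all genes higher and 7.57% lower), with the kinase PERK (Eif2ak3, log2 fold change 0.58) and Eif2s2 (0.33). Their median log2 fold change was 0.18, against -0.00 over all tested genes. Among adult hearts 0 of 17 were called and 2, both higher, passed an unadjusted p (8.92% of all genes higher and 7.28% lower). The kinase PKR (Eif2ak2) had the largest value there (log2 fold change 0.55, adjusted p 0.207 by edgeR and 0.0135 by DESeq2).

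Of 22 tested genes of amino acid synthesis and transport under ATF4, 4 were called in cKO hearts, all higher, and without the fold threshold 10 were higher and 1 lower (median log2 fold change 0.55). Slc7a11, the cystine transporter, was at 1.11 ± 1.08 CPM (SD, n = 3) in floxed and 6.44 ± 1.75 in cKO hearts (log2 fold change 2.55, SE 0.56, edgeR adjusted p = 0.0270). Mthfd2, of mitochondrial one-carbon metabolism, rose from 7.76 ± 2.00 to 23.6 ± 1.40 CPM (log2 fold change 1.60, SE 0.19, edgeR adjusted p = 0.00654). Pycr1, of proline synthesis, rose by 1.16 (SE 0.18), and Psat1, of serine synthesis and named after its values were seen, by 1.10 (SE 0.09), both on the log2 scale. The gene that was lower was Aldh1l2, a mitochondrial folate enzyme, also named after its values were seen (log2 fold change -0.93, SE 0.10). For KI/KI against WT 0 of 22 were called, with 11 higher and 11 lower and a median of -0.04, and 3 higher and 3 lower at an unadjusted p. Mthfd2 had a log2 fold change of 0.86 there (SE 0.31, edgeR adjusted p = 0.275), Slc7a11 -0.88 (SE 0.65) and Aldh1l2 -0.77 (SE 0.19, edgeR adjusted p = 0.209, DESeq2 0.00829).

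The 12 tRNA synthetases and the tRNA exporter Xpot all had a positive log2 fold change in cKO hearts, from 0.12 to 0.47 (median 0.30), and 4 of the 13 passed without the fold threshold. Cars went from 22.3 ± 1.04 to 30.9 ± 0.68 CPM (log2 fold change 0.47, SE 0.08, edgeR adjusted p = 0.0144). Of the 13, 12 were positive in KI/KI hearts (median 0.09), 0 were called and 4 passed an unadjusted p. Of 12 other ATF4 and CHOP targets, 1 was called higher and 1 lower in cKO hearts. This count of 2 was 1 without any of floxed 1, 2 and 3 and cKO 4 and 5, 4 without cKO 6, and 1 by limma-voom or with the Y-linked covariate. Cebpb, a partner of ATF4, was higher (log2 fold change 1.31, SE 0.34, edgeR adjusted p = 0.0423) and Bcl2l11, which encodes the pro-apoptotic BIM that CHOP induces, was lower, at 66.7 ± 13.4 CPM in floxed and 20.9 ± 4.59 in cKO hearts (log2 fold change -1.68, SE 0.20, edgeR adjusted p = 0.00654). Their median was 0.07, and in KI/KI hearts 0 of 12 were called (median -0.01, 1 lower at an unadjusted p).

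The ATF6 and XBP1 branch of the unfolded protein response, which raises ER chaperones and does not need eIF2, was measured with 25 genes. None passed the fold threshold in cKO hearts, while without it 16 were higher and 1 lower (median log2 fold change 0.47). Manf, an ER-resident secreted factor, went from 45.1 ± 6.32 to 86.5 ± 9.41 CPM (log2 fold change 0.94, SE 0.13), Sdf2l1 rose by 0.76 and Herpud1, an ER-associated degradation factor, was lower (-0.83, SE 0.19). The median in KI/KI hearts was 0.06, 0 were called and 2 passed an unadjusted p. Of 12 mitochondrial chaperones and proteases 0 were called in either model (medians -0.14 in KI/KI and 0.04 in cKO hearts), and at an unadjusted p 1 was lower in KI/KI hearts (7.28% of all genes) while 1 was higher and 2 were lower in cKO hearts (18.5% and 16.2%). The protease subunit Clpx was lower in cKO hearts without the fold threshold (-0.52, SE 0.07).

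Genes of p53 and immediate early genes were set beside these, since both kinds of signal are known to act on Gdf15 or Atf3. Of 26 p53 targets 5 were called in cKO hearts, all higher (median log2 fold change 0.30): Cdkn1a (p21) at 19.6 ± 2.00 in floxed and 65.2 ± 4.52 CPM in cKO hearts, Pmaip1, Plk2 and, named after their values were seen, Btg2 and Plk3. Without the fold threshold 9 of the 26 were higher and 1 lower in cKO hearts (9.32% and 7.57% of all genes). Of the 26, 18 had a positive and 8 a negative log2 fold change there. In KI/KI hearts 0 of 26 were called (0% of all genes). At an unadjusted p 2 passed, both higher (8.92% of all genes higher and 7.28% lower). Pmaip1, which encodes NOXA, had a log2 fold change of 1.12 there (SE 0.26, edgeR adjusted p = 0.200) and 1.63 (SE 0.25) in cKO hearts. Of 9 immediate early genes 6 were called in cKO hearts, all higher, among them Fos (log2 fold change 2.51, SE 0.31), Junb (1.92, SE 0.25) and Egr1 (1.81, SE 0.16). Their summed level was 167 to 210 CPM in floxed and 357 to 405 CPM in cKO hearts, and in adult hearts it overlapped, 282 to 387 CPM in WT and 244 to 364 in KI/KI. In cKO hearts they were higher together with Atf3, and their part in the Atf3 result was not tested.

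**Figure D5:**
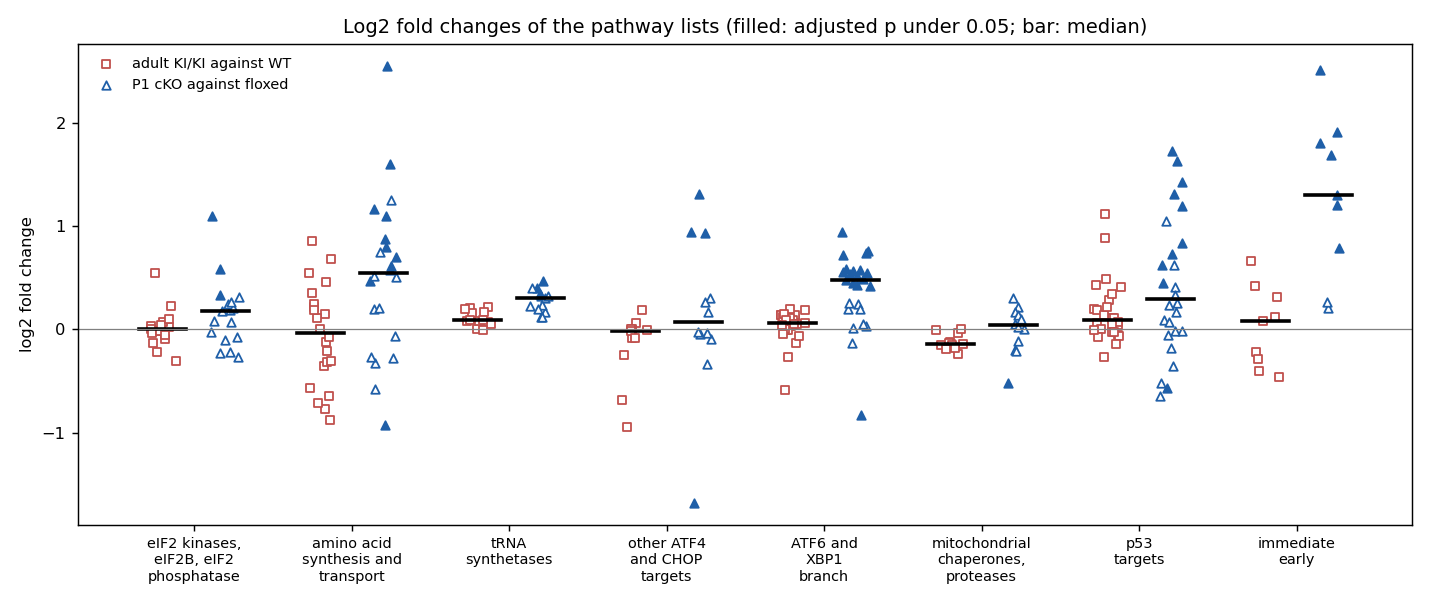
Log2 fold change of every tested gene of 8 lists in KI/KI against WT hearts (squares) and cKO against floxed hearts (triangles), with filled symbols at an edgeR adjusted p under 0.05 and black bars for medians. Medians in cKO hearts ran from 0.04 for mitochondrial chaperones and proteases to 1.30 for immediate early genes, and those in KI/KI hearts lay between -0.14 and 0.09.

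Receptors and coreceptors of GDF15 and of the FGF family, not of FGF21 alone, showed 2 called genes of 7 tested in cKO hearts. Both were lower (1.78% of all genes). Ret, the coreceptor of GFRAL, was at 5.14 ± 0.96 CPM (SD, n = 3) in floxed and 1.91 ± 0.53 in cKO hearts (log2 fold change -1.44, SE 0.26, edgeR adjusted p = 0.0149). Kl, which encodes the FGF coreceptor klotho, was at 0.576 ± 0.068 and 0.120 ± 0.113 CPM (log2 fold change -2.21, SE 0.51), in part at or under the floor. Of 5 tested in KI/KI hearts 0 were called and 1, lower, passed an unadjusted p. Ret had a log2 fold change of -0.47 there (SE 0.18, edgeR adjusted p = 0.285).

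Between control hearts of the 2 ages 3 of the 9 tested genes were called, all lower at P1. Of 15183 tested genes 13.4% were called lower and 13.9% higher. Without the fold threshold it was 4 of the 9, all lower, with Ddit3 (log2 fold change -0.73, SE 0.18, edgeR adjusted p = 0.00841). Of the 15183 genes 4823 were lower and 5074 higher without that threshold. Chac1 was lower by the most, from 4.62 ± 1.63 CPM (SD, n = 3) in WT at 2 months to 0.146 ± 0.072 in floxed hearts (log2 fold change -4.93, SE 0.48). The log2 fold changes of Trib3 (SE 0.17) and Atf5 (SE 0.08) were -1.53 and -1.52. Gdf15 differed by 0.07 (SE 0.52) between the controls. The raised levels of Chac1 and Trib3 in cKO hearts were still below those of adult WT hearts, at 0.605 ± 0.211 and 2.68 ± 0.087 CPM. Age, the floxed alleles and litter cannot be told apart here. Per kilobase of exon, Atf4 was the highest and Fgf21 the lowest of the 10 in all 4 groups. Gdf15 had rank 9 in WT and 5 in KI/KI hearts, and rank 8 in floxed and 6 in cKO hearts, where its mean of 5.38 CPM per kilobase differed from the 5.45 of Nupr1 by less than the spread.

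The difference between the models was tested in a fit of all 12 libraries. Of the 9 genes 1 passed by edgeR, Atf3, against 2.43% of 15729 tested genes, 1.17% with a larger and 1.27% with a smaller value in cKO hearts. DESeq2 passed 4 of the 9, Atf3, Trib3, Atf4 and Chac1, all larger, against 5.01% of genes larger and 3.79% smaller. By edgeR the log2 fold change of Atf3 was 2.25 larger in cKO than in KI/KI hearts (SE 0.48, edgeR adjusted p = 0.0398). Trib3 (0.89 larger, SE 0.21, edgeR adjusted p = 0.0507) and Atf4 (0.46, SE 0.12, 0.0723) did not pass, nor did Chac1 (2.04, SE 0.81, 0.193). Model, age and extent of the Lemd2 loss changed together and cannot be told apart.

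The 5 genes whose profile over the 12 libraries was closest to that of Gdf15, by the root-mean-square difference of standardised log2 CPM, were Pla2g4a (0.318), Bcl2 (0.337), Sprr1a (0.338), Tmem173 (0.338) and Rasgef1a (0.340), out of 15728 genes. Sprr1a, a stress-induced cornified envelope protein, had 2 to 5 counts in WT, 4 to 55 in KI/KI, 2 to 3 in floxed and 22 to 38 in cKO hearts. Bcl2, which encodes an inhibitor of apoptosis, was at 19.3 to 24.9 CPM in WT, 32.3 to 65.3 in KI/KI, 24.4 to 35.4 in floxed and 54.8 to 70.3 in cKO hearts. Of the other genes tested here Atf4 came closest to Gdf15, at rank 518, followed by Atf3 at 1229 and Sesn2 at 1533, and Ddit3 (4898), Atf5 (5410) and Chac1 (6063) were the farthest. The profiles span both ages, so that differences between the control hearts enter these ranks. Those log2 fold changes were -4.93 for Chac1, -1.52 for Atf5 and -0.73 for Ddit3, against 0.07 for Gdf15. The ranks are therefore no measure of a shared change in mutant hearts alone. The 5 genes were chosen on these same 12 libraries, so that their levels are a description, with no test.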

How the data were processed

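The values are raw read counts per gene symbol, deposited by the authors for 12 libraries without normalization. The tools named by the authors for the 75-cycle single-end reads are Trim Galore for trimming, STAR 2.7.2b (mm10) for alignment, SAMtools 1.9 and, for counting, HTSeq, and the version and strand setting of HTSeq are not given in the sources used here. The quasi-likelihood test of edgeR 4.0.16 (robust, R 4.3.3) was fitted per comparison to the 6 libraries concerned after filterByExpr and TMM, with Benjamini-Hochberg adjustment over all tested genes. A call needed an adjusted p below 0.05 and more than a 2-fold change. Alternatives were DESeq2 1.42.0, limma-voom (limma 3.58.1), RLE size factors, no filter or at least 10 counts in every library, other dispersions, all 12 libraries in one fit, a covariate of Y-linked genes, no fold threshold and each library left out. Scripts were tested on simulated counts. No 2 libraries held identical counts.

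The 10 genes and the gene lists were chosen with earlier results of these data known. Named are all 10 genes, Lemd2, up to 3 called genes per list and comparison, completed by the largest changes, and the 5 profiles closest to Gdf15. Other genes are marked. Motifs were searched in RefSeq promoters (32851 windows), and gene positions are those of GRCm38 (GENCODE M21). P-values rest on the spread between mice within groups of 3, with the spread of each gene estimated in part from other genes. Counting floors cover counting error only.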

Additional observations from a re-analysis of the deposited data

Results flagged for a closer look

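The change of Atf3 differed between the 2 models in the fit of all 12 libraries, a call that most left-out libraries removed. Its log2 fold change was 2.25 larger in cKO hearts against floxed hearts than in KI/KI hearts against WT hearts (SE 0.48, edgeR adjusted p = 0.0398). All 3 cKO hearts were above all floxed hearts, and 1 of 3 KI/KI hearts was above all WT hearts. The value ranged from 2.00 to 2.57 with each library left out, and the adjusted p from 0.0243 to 0.114, above 0.05 without any of WT 1 and 2, KI/KI 4, 5 and 6, floxed 1 and 2 and cKO 4 and 5. It was also above 0.05 with no filter (0.0525), with the Y-linked covariate (0.0602) and with the replicate number as a block (0.102). The immediate early genes moved with Atf3, and their part in this difference was not tested.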

How the results depend on the processing

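Gdf15 and Atf3 were called in cKO hearts under every alternative run, with each library left out too. With no fold threshold the calls in cKO hearts were 5 of the 9 genes, and in the lists 3 (eIF2 genes), 11 (amino acid genes), 4 (tRNA synthetases), 4 (other ATF4 and CHOP targets), 17 (ATF6 and XBP1 branch), 1 (mitochondrial chaperones and proteases) and 10 (p53 targets), since that setting drops a criterion. For the other ATF4 and CHOP targets the count was 1 with limma-voom and 1 with the Y-linked covariate. In KI/KI hearts 1 of the 9 genes was called with DESeq2 and 1 in a fit of all 12 libraries. The adjusted p of Chac1 in cKO hearts was 0.0611 in a fit of all 12 libraries and 0.0839 with the Y-linked covariate. For the difference between the models the count of 1 became 4 with DESeq2, 2 with RLE size factors, 2 with at least 10 counts in every library, 0 with no filter and 0 with the Y-linked covariate, and the cause was not tested. With each library left out, the number of the 9 genes called was 0 to 1 in KI/KI hearts and 0 to 2 for the difference. It was 0 without 9 of the 12 libraries, WT 1 and 2, KI/KI 4, 5 and 6, floxed 1 and 2 and cKO 4 and 5. In cKO hearts the lists then gave 0 to 1 (eIF2 genes), 2 to 6 (amino acid genes, 2 without cKO 5), 1 to 4 (other ATF4 and CHOP targets, 4 without cKO 6), 0 to 2 (ATF6 and XBP1 branch) and 3 to 6 (p53 targets, 3 without floxed 1). The eIF2 count was 0 without floxed 1, and that of the ATF6 and XBP1 branch 2 without floxed 3. Values near 0 changed sign when a library was left out. In KI/KI hearts the ranges were -0.27 to 0.27 (Atf3), -0.13 to 0.20 (Ddit3) and -0.36 to 0.24 (Chac1), in cKO hearts -0.33 to 0.42 (Nupr1), and between control hearts -0.26 to 1.06 (Gdf15) and -0.34 to 0.16 (Nupr1). For the difference between the models they were -0.86 to 0.68 (Gdf15), -0.16 to 0.068 (Atf5) and -0.15 to 0.10 (Sesn2). With the Y-linked covariate Nupr1 in cKO hearts was at -0.39, and the differences of Gdf15 and Atf5 were -0.22 and 0.077. DESeq2 called 110 genes higher and 47 lower in KI/KI hearts, where edgeR called 0 and 0.

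Mice with the same number in different groups were different animals of different ages. Deviations of same-numbered WT and floxed hearts correlated at -0.24, -0.29 and -0.54, and those of KI/KI and cKO hearts at 0.21, 0.20 and 0.085, so that the numbers were not taken as pairs. With the replicate number as a block, the difference between the models gave 0 calls among the 9 genes, and the adjusted p of Atf3 was 0.102 at a value of 2.27. Within each model, WT and KI/KI hearts, like floxed and cKO hearts, share no replicate number. At 3 counts in floxed 2 and 0 to 3 counts of Fgf21 in every library, depth limits what can be said of Chac1 at P1 and of Fgf21.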
